A study of Mus musculus with 8 samples.

Results

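The genes described are 10 genes by which lipid-associated macrophages are usually recognised, a state of tumor-associated macrophages (TAMs) marked by *Trem2* and *Spp1*: *Trem2*, *Spp1*, *Gpnmb*, *Fabp4*, *Fabp5*, *Lgals3*, *Cd9*, *Cd63*, *Acp5* and *Mmp12*. They were chosen with earlier results of these data known and matched by gene name. All 10 were found among the 26939 genes of the joined count tables. Bulk RNA-seq had been performed on TAMs sorted on CD45, CD11b and F4/80, with Gr-1+ cells left out, from orthotopic EO771 tumors, a mouse breast cancer line, at day 21. The 8 libraries comprised 2 from WT control mice, 2 from *Unc93b1* 3d/3d control mice, 2 from WT mice given αMARCO and 2 from *Unc93b1* 3d/3d mice given αMARCO, all from mice of 8 to 14 weeks. The 3d allele is a missense allele of a chaperone that carries endosomal Toll-like receptors out of the endoplasmic reticulum, and mice with 2 copies lack signaling through these receptors in all cells, not only in macrophages. αMARCO was the rat antibody clone ED31 against the scavenger receptor MARCO, given in 4 doses of 100 µg on days 3, 6, 9 and 12. The sample labels call the control mice untreated and the library names say PBS, while the treatment protocol names an isotype control antibody, so that the control injection cannot be stated. Each control library was pooled from the TAMs of 3 mice. For the αMARCO libraries the number of mice is not given in the sources used here. The genotype field of *Unc93b1* 3d/3d control replicate 2 reads 3d/4d, while its title reads 3d/3d.

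Lipid-associated macrophages take up lipid and dying cells and hold them in an enlarged lysosomal compartment. TREM2 is a surface receptor for lipids and lipoproteins that signals through the adaptor TYROBP, and macrophages with this receptor are known from obese fat, atherosclerotic plaque and tumors. SPP1, or osteopontin, is a secreted ligand of CD44 and of integrins. GPNMB is a glycoprotein of late endosomes and lysosomes. FABP4 and FABP5 carry fatty acids in the cytosol, LGALS3 binds galactosides on glycoproteins and damaged lysosomes, and CD9 and CD63 are tetraspanins of the cell surface and of late endosomes. ACP5 is the tartrate-resistant acid phosphatase that is also the classical enzyme of osteoclasts, and MMP12 is the macrophage elastase.

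The library totals ranged from 15182618 to 26411936 counts, at which 3 counts, the smallest amount taken as detected, corresponded to 0.114 to 0.198 CPM (a gene's counts relative to its library's total, after TMM scaling over the 8 libraries). This floor covers counting error only. All 10 genes had at least 54 counts in every library and passed the filter on low counts in all comparisons. A single library stood apart from the rest. *Unc93b1* 3d/3d αMARCO replicate 2 lay at a Euclidean distance of 132 to 144 from the other 7 in log2 CPM over 16620 genes, against 56.1 to 123 among those 7. It also had counts for 19700 genes, where the others had 20849 to 23152. Every comparison that holds this library is therefore given with and without it. Macrophage markers were abundant throughout, with *Cd68* at 763 to 1052 CPM, *Csf1r* at 904 to 1131 CPM and *Adgre1*, the gene of F4/80, at 331 to 719.6 CPM. Of the other sort markers, *Ptprc*, the gene of CD45, had 791 to 1311 CPM and *Itgam*, the gene of CD11b, had 291 to 722 CPM. Their levels were not even between genotypes, as given below. *Marco* had 1 to 17 counts in a library. *Unc93b1* itself had 707 to 965 CPM in the WT libraries and 539 to 659.6 CPM in the *Unc93b1* 3d/3d libraries, and because the allele changes a single amino acid this level is no check of the genotype. Adipocyte markers, which matter for *Fabp4*, were near 0, with a summed level of 0.136 to 0.816 CPM over 5 genes and *Adipoq* at 0 counts in 6 of the 8 libraries.

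The promoters of *Acp5*, *Trem2*, *Spp1* and *Mmp12* are shown because these genes were called between genotypes in control TAMs and did not overlap between genotypes under αMARCO either. Each sequence holds the 250 bases before an annotated start site, from RefSeq on GRCm38.p6, written 5′ to 3′ on the strand of the gene. Start sites of 8 of the 10 genes matched, all but *Fabp4* and *Fabp5*. Capitals mark a match to the AP-1 motif TGANTCA, which recruits FOS and JUN proteins, or to GAGGAAGT, a form of the motif of the macrophage factor PU.1, searched on both strands.
*Trem2* chr17:48346151-48346400, plus strand: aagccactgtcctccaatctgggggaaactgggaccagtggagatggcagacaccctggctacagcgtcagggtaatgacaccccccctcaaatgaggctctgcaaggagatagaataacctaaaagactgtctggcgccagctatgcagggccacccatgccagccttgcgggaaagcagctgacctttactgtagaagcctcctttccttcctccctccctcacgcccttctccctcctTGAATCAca
*Spp1* chr5:104434861-104435110, plus strand: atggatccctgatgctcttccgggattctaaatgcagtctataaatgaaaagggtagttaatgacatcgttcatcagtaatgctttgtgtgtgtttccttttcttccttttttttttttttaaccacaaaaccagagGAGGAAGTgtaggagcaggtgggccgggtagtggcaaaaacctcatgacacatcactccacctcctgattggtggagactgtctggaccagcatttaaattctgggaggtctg
*Mmp12* chr9:7344147-7344396, plus strand: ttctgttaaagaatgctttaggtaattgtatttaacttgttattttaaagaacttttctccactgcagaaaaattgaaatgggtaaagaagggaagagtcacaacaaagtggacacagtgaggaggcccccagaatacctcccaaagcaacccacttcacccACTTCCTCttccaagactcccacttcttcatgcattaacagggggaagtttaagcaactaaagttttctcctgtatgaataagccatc
*Acp5* chr9:22135747-22135996, minus strand: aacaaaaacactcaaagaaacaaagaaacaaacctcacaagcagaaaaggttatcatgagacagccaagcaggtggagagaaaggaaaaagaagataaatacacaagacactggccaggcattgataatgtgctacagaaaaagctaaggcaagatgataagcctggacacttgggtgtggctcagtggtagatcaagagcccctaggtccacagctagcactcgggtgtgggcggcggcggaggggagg
*Trem2* carried an AP-1 match that began 9 bases before its start site, while *Spp1* and *Mmp12* carried a PU.1 match that began 113 and 88 bases before theirs. At a second start site of *Mmp12*, not printed, an AP-1 match began 44 bases upstream. AP-1 matches were present in 6.75% and PU.1 matches in 2.44% of all 32851 windows of this length. The E-box CACGTG, which MITF and TFEB bind, was present in 6.02% of all windows and in none of the 12 windows of these genes. *Acp5* had no match to these motifs in the window shown. A match in letters is a description and not evidence of binding.

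The 10 genes covered a wide range of levels. Per kilobase of gene length, the mean over the 4 groups was highest for *Lgals3* at 990.4 CPM per kilobase, followed by *Spp1* at 433, *Fabp5* at 200.2, *Acp5* at 94.1, *Mmp12* at 79.7, *Cd63* at 78.2 and *Cd9* at 42.9. *Gpnmb* followed at 12.6, and *Fabp4* and *Trem2* were lowest at 2.59 and 1.34 CPM per kilobase. The deposited length of *Fabp4*, 4489 bases, equals its whole genomic span, and deposited lengths set all levels on this scale. Over the 8 libraries the ranges of neighbours in this order overlapped, except that *Lgals3* lay above *Spp1*, *Cd9* above *Gpnmb* and *Gpnmb* above *Fabp4* in every library. *Acp5* changed its place with genotype, lying at 109 to 208 CPM per kilobase in WT TAMs, above *Mmp12* in all 4 libraries, and at 24.8 to 42.7 in *Unc93b1* 3d/3d TAMs, below *Mmp12* in all 4. Among all 16620 genes tested over the 8 libraries, the mean CPM of *Lgals3* lay above 99.8% and that of *Spp1* above 99.1%, while *Trem2* lay above 40.2%. By its mean over the 4 groups the receptor *Trem2* was the least abundant of the 10 per length, although in *Unc93b1* 3d/3d αMARCO TAMs *Fabp4* was lower (1.47 against 2.16 CPM per kilobase), and the secreted ligand *Spp1* was among the most abundant transcripts in the sorted cells.

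**Figure D1:**
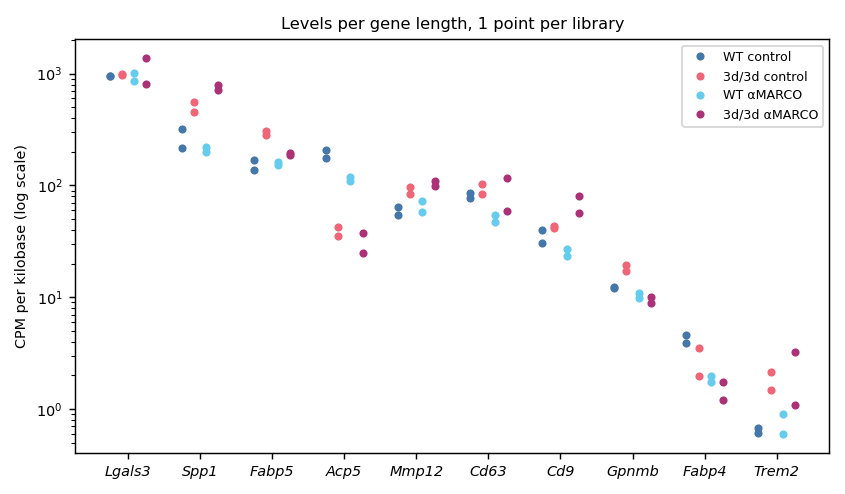
Levels of the 10 genes as CPM per kilobase of gene length on a log axis, with 1 point per library and genes ordered by their mean over the 4 groups. *Lgals3* had the highest mean at 990.4 and *Trem2* the lowest at 1.34, and the *Acp5* points of WT and *Unc93b1* 3d/3d TAMs lie apart.

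In mice not given αMARCO, the comparison asked whether TAMs without endosomal Toll-like receptor signaling differ from WT TAMs. Of the 10 genes, 6 were called differentially expressed in control TAMs. *Acp5* was higher in WT, 1 gene where 6.58% of all 15600 genes tested were called higher, and *Trem2*, *Fabp5*, *Spp1*, *Mmp12* and *Gpnmb* were higher in *Unc93b1* 3d/3d, 5 genes where 6.40% were called in that direction. *Lgals3*, *Cd9*, *Cd63* and *Fabp4* were not called. The libraries of the genotypes did not overlap for 9 of the 10 genes, all but *Cd63*, beside 63.1% of all genes tested. A call required that the adjusted *P* of edgeR's quasi-likelihood test did not exceed 0.05 and that the log2 fold change reached 0.5 in size, and genotype fold changes are WT over *Unc93b1* 3d/3d. The median log2 fold change was −0.44 over the 10 genes and −0.0036 over all genes tested. With 2 pooled libraries a group, the *P* values measure the spread between these pools. In bulk RNA, fewer cells of a type and less RNA per cell cannot be told apart.

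The receptor *Trem2* (ENSMUSG00000023992, chromosome 17, 48346401 to 48354147) was low in WT control TAMs, where 64 and 54 counts gave 3.37 and 2.99 CPM, while 169 and 144 counts gave 10.6 and 7.30 CPM in *Unc93b1* 3d/3d control TAMs. Both *Unc93b1* 3d/3d libraries lay above both WT libraries. The level was 2.84-fold higher in *Unc93b1* 3d/3d TAMs (log2 fold change −1.50, standard error 0.28, adjusted *P* = 0.00716, edgeR). *Spp1* (ENSMUSG00000029304, chromosome 5, 104435118 to 104441050), the secreted ligand, had 524 and 355 CPM in WT and 911 and 745 CPM in *Unc93b1* 3d/3d control TAMs. The groups did not overlap, although the WT libraries differed from each other by 1.48-fold. *Spp1* was 1.91-fold higher in *Unc93b1* 3d/3d TAMs (log2 fold change −0.93, standard error 0.20, adjusted *P* = 0.0229, edgeR). This call was lost without *Unc93b1* 3d/3d control replicate 1 (log2 fold change −0.77, adjusted *P* = 0.187) and without replicate 2 (−1.08, adjusted *P* = 0.0753, both edgeR). The endosomal glycoprotein *Gpnmb* (ENSMUSG00000029816, chromosome 6, 49036546 to 49070929) had 80.8 and 79.3 CPM in WT and 127 and 112 CPM in *Unc93b1* 3d/3d control TAMs. It was 1.51-fold higher in *Unc93b1* 3d/3d TAMs (log2 fold change −0.60, standard error 0.10, adjusted *P* = 0.00469, edgeR), and without *Unc93b1* 3d/3d control replicate 1 it fell just short of the fold change threshold at −0.497.

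The fatty acid carriers differed with opposite signs. *Fabp5* (ENSMUSG00000027533, chromosome 3, 10012548 to 10016607) had 601 and 494 CPM in WT and 1014 and 1106 CPM in *Unc93b1* 3d/3d control TAMs. It was 1.96-fold higher in *Unc93b1* 3d/3d TAMs (log2 fold change −0.97, standard error 0.12, adjusted *P* = 0.0011, edgeR), and the call held whichever library was omitted. *Fabp4* (ENSMUSG00000062515, chromosome 3, 10204088 to 10208576), which lies near *Fabp5* and was expressed far lower, had 20.5 and 17.6 CPM in WT and 15.9 and 8.88 CPM in *Unc93b1* 3d/3d control TAMs. Its *Unc93b1* 3d/3d libraries differed by 1.80-fold, and its log2 fold change of 0.61 (standard error 0.27) had an adjusted *P* of 0.158 in edgeR. Without the higher of these, *Unc93b1* 3d/3d control replicate 1, *Fabp4* was called higher in WT at a log2 fold change of 1.09 (adjusted *P* = 0.00814, edgeR).

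*Acp5* (ENSMUSG00000001348, chromosome 9, 22126727 to 22135711), the acid phosphatase, had 354 and 422 CPM in WT and 72.4 and 86.6 CPM in *Unc93b1* 3d/3d control TAMs. The groups lay far apart beside the spread within them. *Acp5* was 4.83-fold higher in WT (log2 fold change 2.27, standard error 0.13, adjusted *P* = 1.03e-05, edgeR), and the log2 fold change stayed between 2.15 and 2.40 whichever library was omitted. Of 6 tested markers of osteoclasts, 2 were called higher in WT, where 6.58% of all genes were, and 0 lower. Their median log2 fold change was 0.34, and their summed level was 257 and 263 CPM in WT and 259 and 318 CPM in *Unc93b1* 3d/3d control TAMs. *Ctsk*, the osteoclast cathepsin and a gene of the wider lipid-associated list, was among them, with 13.2 and 19.5 CPM in WT and 9.48 and 7.15 CPM in *Unc93b1* 3d/3d control TAMs. *Mmp12* (ENSMUSG00000049723, chromosome 9, 7344381 to 7369499), the elastase, had 462 and 398 CPM in WT and 601 and 702 CPM in *Unc93b1* 3d/3d control TAMs. It was 1.53-fold higher in *Unc93b1* 3d/3d TAMs (log2 fold change −0.62, standard error 0.12, adjusted *P* = 0.00786, edgeR).

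The tetraspanins and the galectin did not pass the test between control groups. *Cd63* (ENSMUSG00000025351, chromosome 10, 128900989 to 128912822) had 314 and 284 CPM in WT and 306 and 381 CPM in *Unc93b1* 3d/3d TAMs, and these ranges overlapped (log2 fold change −0.22, standard error 0.12). *Cd9* (ENSMUSG00000030342, chromosome 6, 125460266 to 125494791) had 82.5 and 62.0 CPM in WT and 85.1 and 88.7 CPM in *Unc93b1* 3d/3d TAMs, with a log2 fold change of −0.28 (standard error 0.13). *Lgals3* (ENSMUSG00000050335, chromosome 14, 47367751 to 47386160) had 1756 and 1764 CPM in WT and 1833 and 1818 CPM in *Unc93b1* 3d/3d TAMs, with a log2 fold change of −0.069 (standard error 0.10). Its 4 control libraries lay closer together than those of any other of the 10 genes.

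**Figure D2:**
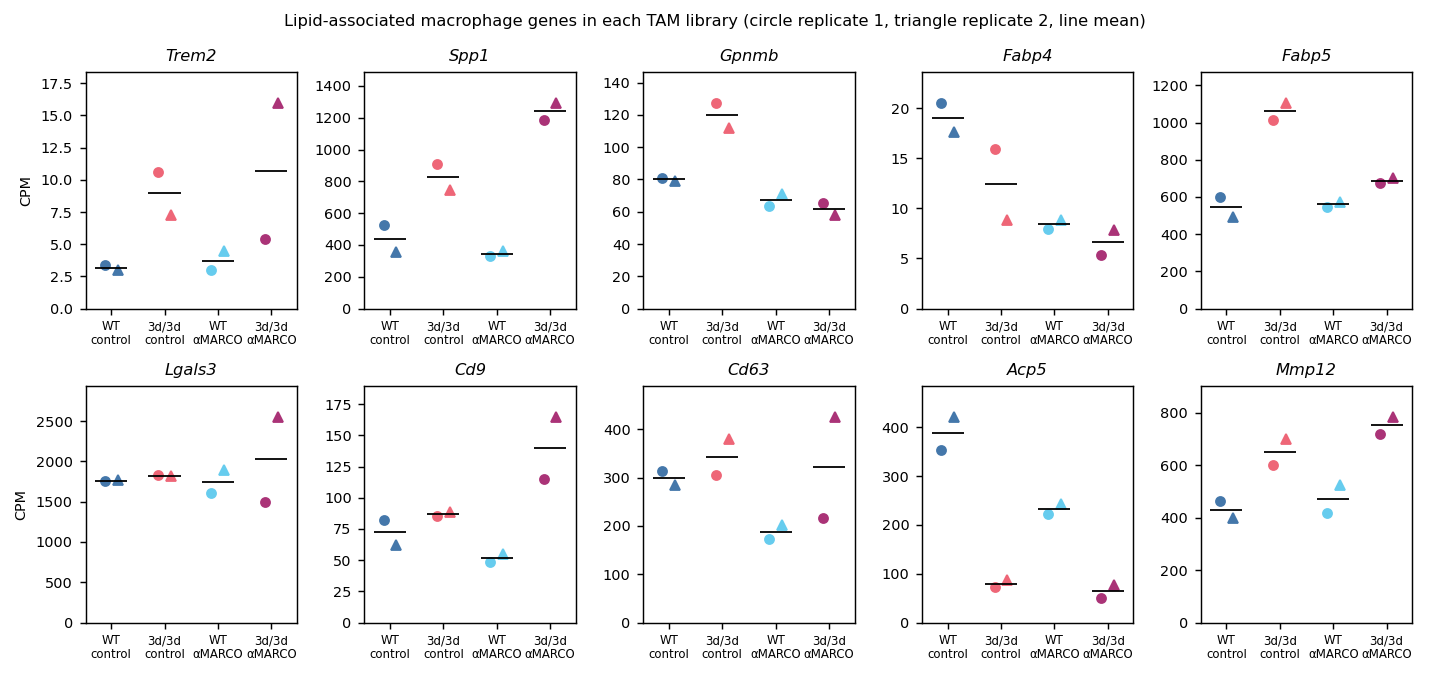
CPM of each of the 10 genes in the 8 TAM libraries, with circles for replicate 1, triangles for replicate 2 and lines for the group mean, on linear axes that start at 0. *Acp5* was at 221 to 422 CPM in WT and at 50.3 to 86.6 CPM in *Unc93b1* 3d/3d libraries, and for *Trem2*, *Lgals3* and *Cd63* the 2 *Unc93b1* 3d/3d αMARCO libraries lay far apart.

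The number of calls depended on which libraries shared the estimate of spread. When a single model held all 8 libraries, *Acp5* (adjusted *P* = 0.00346) and *Fabp5* (adjusted *P* = 0.0294, both edgeR) were the 2 genes still called, against 2.19% of all genes. The log2 fold changes of the others were close to those above, at −1.49 for *Trem2*, −0.91 for *Spp1*, −0.60 for *Mmp12* and −0.58 for *Gpnmb*. With the library that stood apart omitted from this model, which then held 7 libraries, the same 6 genes as in the 4 control libraries were called, against 13.8% of all genes.

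Other genes of the state were called in both directions. Of 28 further genes of lipid-associated macrophages, 4 were called higher and 4 lower in WT than in *Unc93b1* 3d/3d control TAMs, beside 6.58% and 6.40% of all genes, and their median log2 fold change was 0.098. *Apoe*, the lipoprotein that TREM2 binds, had 2475 and 2509.9 CPM in WT and 5608 and 6792 CPM in *Unc93b1* 3d/3d control TAMs (log2 fold change −1.33, adjusted *P* = 0.000269, edgeR). The lysosomal protease *Ctsl* was 1.73-fold higher in *Unc93b1* 3d/3d TAMs. *Slamf9*, a macrophage surface receptor, was higher in WT, with 274 and 384 CPM against 86.8 and 107 CPM (log2 fold change 1.75, adjusted *P* = 0.00153, edgeR). Of 15 genes of TREM2 signaling, *Pik3r1*, a subunit of PI3 kinase, was called higher in WT by 1.43-fold, and *Apoe* and *Ms4a4a* were called lower. The adaptor *Tyrobp* had 667 and 675 CPM in WT and 481 and 511 CPM in *Unc93b1* 3d/3d control TAMs, and its log2 fold change of 0.42 was under the threshold, so that receptor and adaptor had opposite signs. Of 8 receptors of SPP1, the integrin subunits *Itga4* (log2 fold change 0.53) and *Itga9* (0.58) were called higher and *Itgb5* (−0.67) lower in WT, while *Cd44* had 481 and 438 CPM in WT and 435 and 452 CPM in *Unc93b1* 3d/3d TAMs.

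Transcription factors of lipid and lysosome genes were called in both directions. Of 11, 3 were called higher in WT and 3 lower, beside 6.58% and 6.40% of all genes. *Pparg*, the nuclear receptor for fatty acids and a regulator of *Fabp4*, had 82.2 and 102 CPM in WT and 27.1 and 29.4 CPM in *Unc93b1* 3d/3d control TAMs (log2 fold change 1.69, adjusted *P* = 6.74e-05, edgeR). *Nr1h3*, the oxysterol receptor LXRα, had 149 and 217 CPM in WT and 42.6 and 59.9 CPM in *Unc93b1* 3d/3d TAMs, the opposite direction to its known target *Apoe*. *Mitf* and *Tfec*, which control lysosomal genes, were higher in *Unc93b1* 3d/3d TAMs by 1.77-fold and 1.55-fold. *Bhlhe40* was called higher in WT (log2 fold change 0.60) and the related *Bhlhe41* lower (−1.21). Among 14 other tetraspanins, *Cd82* and *Cd81* were called higher in WT by 1.77-fold and 1.69-fold, with none lower. These 2 calls stand beside 6.58% of all genes called higher. Of the 6 tested genes among other galectins and fatty acid binding proteins, none was called.

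Markers of other cells and states moved with genotype in the same libraries. Their calls stand beside 6.58% of all genes called higher and 6.40% called lower in WT. Of 15 tested genes of resident-like macrophages, 11 were called higher in *Unc93b1* 3d/3d and 1 higher in WT, and their summed level was 2720 and 3102 CPM in WT and 5942 and 7242 CPM in *Unc93b1* 3d/3d control TAMs. All 12 T cell markers had counts, with a summed level of 115 and 132 CPM in WT and 10.7 and 22.3 CPM in *Unc93b1* 3d/3d control TAMs, and 11 of 12 were called. Genes of nonclassical monocytes had a summed level of 1624 and 1629 CPM in WT against 561 and 683 CPM in *Unc93b1* 3d/3d control TAMs, with 4 of 10 called higher in WT and 1 lower. The summed level of fibroblast markers was 190.02 and 159.8 CPM in *Unc93b1* 3d/3d against 112 and 87.7 CPM in WT control TAMs, and 3 of 7 were called lower in WT. NK cell markers summed to 158 and 140 CPM in WT against 65.0 and 42.9 CPM, with 2 of 8 called higher in WT. B cell markers summed to 111 and 160 CPM in WT against 27.6 and 26.3 CPM, with 2 of 4 tested called higher. Endothelial markers summed to 294 and 298 CPM in WT against 133 and 111 CPM, with *Pecam1* called higher. Of these 3 lists, 0 genes were called lower. Mature dendritic cell markers were called higher in WT for 3 and lower for 1 of 9 tested genes. The part of these markers in the differences of the 10 genes was not tested.

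Under αMARCO, the same comparison between genotypes asked whether treated TAMs differ with endosomal Toll-like receptor signaling. None of the 10 genes was called, against 0% of 15722 genes tested by edgeR, of which 1076 had an unadjusted *P* under 0.05. DESeq2 called 214 genes in the same libraries, 1.36%, among them *Acp5*, *Spp1* and *Cd9*. *Spp1* had 328 and 365 CPM in WT αMARCO and 1186 and 1294 CPM in *Unc93b1* 3d/3d αMARCO TAMs. The groups lay far apart, yet the log2 fold change of −1.84 (standard error 0.22) had an adjusted *P* of 0.187 in edgeR. *Acp5* had 221 and 244 CPM in WT αMARCO and 50.3 and 77.0 CPM in *Unc93b1* 3d/3d αMARCO TAMs, and at a log2 fold change of 1.87 ± 0.27 (standard error) its adjusted *P* was 0.263 in edgeR. *Cd9* had 48.3 and 54.7 CPM in WT αMARCO and 115 and 165 CPM in *Unc93b1* 3d/3d αMARCO TAMs, and at a log2 fold change of −1.44 ± 0.24 (standard error) its adjusted *P* was 0.336 in edgeR. For these 3 genes the genotypes did not overlap under αMARCO, nor did they for *Mmp12*, *Fabp5*, *Fabp4*, *Cd63* and *Trem2*, 8 of the 10 genes beside 44.3% of all genes tested. *Spp1*, *Acp5* and *Cd9* were also called when all 8 libraries shared a model, with adjusted *P* values of 0.0155, 0.0147 and 0.0317 in edgeR, against 0.650% of all genes.

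Without the library that stood apart, *Unc93b1* 3d/3d αMARCO replicate 2, the remaining library of that group was assumed to vary like the others. Then *Acp5* (log2 fold change 2.21), *Spp1* (−1.77), *Cd9* (−1.15) and *Mmp12* (−0.61) were called, against 7.45% of all genes. The same 4 were called by the model of 7 libraries, against 3.88% of all genes. Without replicate 1 in place of replicate 2, 7 of the 10 were called, but so were 38.6% of all 16500 genes tested. *Mmp12* had 418 and 526 CPM in WT αMARCO and 719.7 and 786 CPM in *Unc93b1* 3d/3d αMARCO TAMs, so that its groups also did not overlap. The difference of *Trem2* rested on the library that stood apart. *Trem2* had 2.96 and 4.47 CPM in WT αMARCO TAMs and 5.42 and 16.0 CPM in *Unc93b1* 3d/3d αMARCO TAMs, with a log2 fold change of −1.51 (standard error 0.59) that became −0.53 without replicate 2 and −2.08 without replicate 1. *Cd63* likewise had 173 and 201 CPM in WT αMARCO and 216 and 426 CPM in *Unc93b1* 3d/3d αMARCO TAMs, with log2 fold changes of −0.77 in all libraries and −0.20 without replicate 2. *Gpnmb* and *Fabp5* showed small differences here, with log2 fold changes of 0.13 (standard error 0.18) and −0.29 (standard error 0.20).

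αMARCO was then compared with control within each genotype, to describe the response to the antibody. In WT TAMs, 3 of the 10 genes were called, against 20.7% of all 15630 genes tested. All 3 were lower under αMARCO, where 11.8% of all genes were called in that direction, and 0 were higher, where 8.91% were. With 10 genes, 3 calls beside a share of 20.7% are no result about these genes as a group. *Fabp4* fell from 20.5 and 17.6 CPM to 7.91 and 8.87 CPM (log2 fold change −1.17, standard error 0.16, adjusted *P* = 0.000684, edgeR), a 2.25-fold difference. *Acp5* fell from 354 and 422 CPM to 221 and 244 CPM (log2 fold change −0.73, standard error 0.10, adjusted *P* = 0.000825, edgeR). *Cd63* fell from 314 and 284 CPM to 173 and 201 CPM (log2 fold change −0.67, standard error 0.10, adjusted *P* = 0.000919, edgeR). Treated and control libraries did not overlap for these 3 genes, *Cd9* and *Gpnmb*, 5 of the 10 beside 70.9% of all genes tested, and each of the 3 calls held whichever WT library was omitted. None of the 3 was called when all 8 libraries shared a model, with adjusted *P* values of 0.108, 0.135 and 0.25 in edgeR against 0.987% of all genes called. With the library that stood apart omitted from that model, *Cd9* was called beside them, against 18.3% of all genes.

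The remaining 7 genes were not called in WT TAMs. *Cd9* went from 82.5 and 62.0 CPM to 48.3 and 54.7 CPM, and its log2 fold change of −0.48 passed the test (adjusted *P* = 0.0295, edgeR) but not the fold change threshold. *Spp1* had 524 and 355 CPM in control and 328 and 365 CPM in αMARCO TAMs, which overlapped. Without WT control replicate 2, its log2 fold change of −0.34 (standard error 0.19) became −0.60 and was called (adjusted *P* = 6.1e-05, edgeR), as was that of *Cd9* at −0.68. *Gpnmb*, with 80.8 and 79.3 CPM in control and 63.7 and 71.2 CPM in αMARCO TAMs, had a log2 fold change of −0.24 (adjusted *P* = 0.0516, edgeR). *Trem2*, *Mmp12* and *Fabp5* had log2 fold changes of 0.24 (standard error 0.29), 0.14 (standard error 0.12) and 0.041 (standard error 0.11). With 1 library left out at a time, these ranged from −0.099 to 0.51, from −0.034 to 0.31 and from −0.10 to 0.18, so that each changed sign. The log2 fold change of *Lgals3* was −0.001 ± 0.11 (standard error), which changed sign with DESeq2's size factors.

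In the wider lists, 7 of 28 further genes of lipid-associated macrophages were called lower in WT TAMs under αMARCO, where 11.8% of all genes were, and 0 were called higher, where 8.91% of all genes were. Of the 28 genes, 6 had a log2 fold change above 0, with a median log2 fold change of −0.35 against −0.012 over all genes tested. Among them, the protease inhibitor *Cst7* (12.8 and 10.3 CPM in control, 4.08 and 3.51 CPM under αMARCO) and the cathepsin *Ctsk* (log2 fold change −1.67) had the lowest adjusted *P*. *Anxa5*, which binds the phosphatidylserine of dying cells, fell by 0.53 on the log2 scale. Of the TREM2 signaling genes, *Clu*, a lipid carrier that TREM2 binds, was the 1 gene called, with 24.2 and 18.3 CPM in control and 8.10 and 7.02 CPM under αMARCO. Among SPP1 receptors, *Itga5* rose (log2 fold change 0.83) while *Itgb1* (−0.58) and *Itga4* (−0.55) fell. *Pparg* (−0.51), *Rxra* (−0.51) and *Bhlhe40* (−0.87) fell among the transcription factors, and *Mitf* rose by 0.56. The tetraspanins *Cd82* (−0.89), *Cd81* (−0.73), *Tspan33* (−1.54) and *Tspan4* (−0.55) fell in the same direction as *Cd63*. Markers of other cells and states differed between the same libraries, in both directions. Genes of resident-like macrophages summed to 3102 and 2720 CPM in WT control and to 4132 and 3963 CPM in WT αMARCO TAMs. Of 15 tested, 3 were called higher, among them *Stab1* by 2.84-fold, and 2 lower. Of 9 classical monocyte genes, 8 had a log2 fold change above 0, and *Ccr2* (0.69) was the 1 called. All 12 T cell markers were called lower under αMARCO, with a summed level of 10.2 and 15.3 CPM in WT αMARCO TAMs against 115 and 132 CPM in WT control TAMs. Mature dendritic cell markers were called lower for 5 and higher for 1 of 9 tested genes, with sums of 755 and 800.4 CPM under αMARCO against 949 and 1386 CPM. Endothelial markers summed to 294 and 298 CPM in WT control and to 198 and 201 CPM in WT αMARCO TAMs, and 2 of 6 tested were called lower, *Pecam1* (203 and 199 CPM against 107 and 106 CPM) and *Cdh5*. *Pecam1* made up most of this sum in each of these libraries. Of the tested markers not called, *Kdr* (0.051) and *Vwf* (−0.037) lay near 0, and *Esam* (−0.72) and *Tie1* (−0.69) were lower. Fibroblast markers summed to 112 and 87.7 CPM in control and to 39.7 and 26.6 CPM under αMARCO, with 3 of 7 called lower, and 9 of 10 cell cycle genes were called lower. Macrophage markers summed to 11428 and 12452 CPM in WT control and to 8745.5 and 9137 CPM in WT αMARCO TAMs. Of 8, 0 were called higher and 4 lower, *C1qa* (−0.73), *C1qc* (−0.71), *C1qb* (−0.59) and *Adgre1* (−0.54). The share of counts from mitochondrial genes was 1.07% and 1.03% in WT control and 2.37% and 2.74% in WT αMARCO libraries. Their part in the falls of *Fabp4*, *Acp5* and *Cd63* was not tested.

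**Figure D3:**
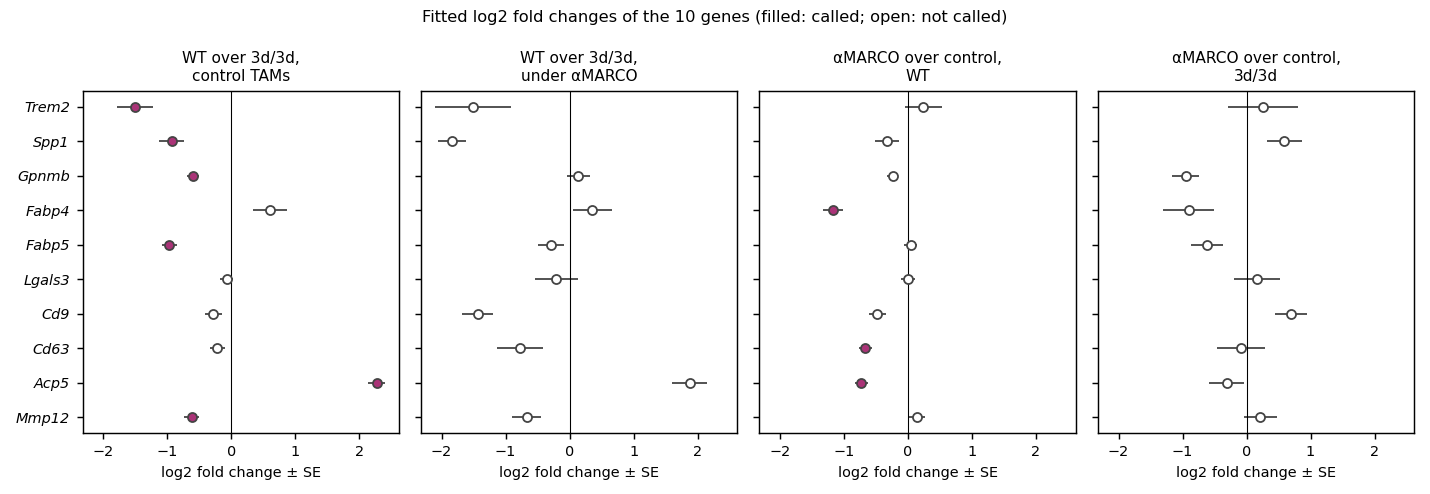
Log2 fold changes of the 10 genes with their standard errors in each pair of groups, from the edgeR fit of the 4 libraries concerned. Filled points were called (adjusted *P* of at most 0.05 and absolute log2 fold change of at least 0.5), 6 in control TAMs and 3 in WT TAMs, and open points were not.

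In *Unc93b1* 3d/3d TAMs, none of the 10 genes was called between αMARCO and control, against 0% of 15428 genes tested by edgeR. Of these genes 744 had an unadjusted *P* under 0.05, and DESeq2 called 60 with none of the 10 among them. *Gpnmb* had 127 and 112 CPM in control and 65.2 and 58.1 CPM in αMARCO TAMs. These groups did not overlap, and the log2 fold change was −0.95 (standard error 0.21, unadjusted *P* = 0.0037, adjusted *P* = 0.823, edgeR). *Spp1* had 911 and 745 CPM in control and 1186 and 1294 CPM in αMARCO TAMs, and *Cd9* had 85.1 and 88.7 CPM in control and 115 and 165 CPM in αMARCO TAMs. Both lay higher in both treated libraries, with log2 fold changes of 0.59 (standard error 0.27) and 0.69 (standard error 0.26) and adjusted *P* values of 0.823 in edgeR. *Fabp5* had 1014 and 1106 CPM in control and 673 and 703 CPM in αMARCO TAMs, lower in both treated libraries (log2 fold change −0.62, standard error 0.26). Treated and control libraries did not overlap for 6 of the 10 genes, these 4, *Fabp4* and *Mmp12*, beside 38.9% of all genes tested. Of 15 tested genes of resident-like macrophages, 0 had a log2 fold change above 0, with a median of −0.73. Of 10 cell cycle genes, 0 did, with a median of −0.65, while 5 of 8 macrophage markers did. Over all genes tested the median was 0.029. The part of these shifts in the differences of the 10 genes was not tested.

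The 2 *Unc93b1* 3d/3d αMARCO libraries differed most for *Trem2*, *Cd63* and *Lgals3*, by 2.95-fold, 1.97-fold and 1.71-fold. *Lgals3* had 1498 and 2555 CPM in these libraries, below and above all of the other 6, which lay at 1609.7 to 1888 CPM. Without replicate 2, the library that stood apart, the log2 fold change of *Trem2* turned from 0.26 to −0.72, that of *Lgals3* from 0.16 to −0.28, and that of *Cd63* went from −0.086 to −0.67. In that fit 6 of the 10 genes were called, against 3.41% of all 16754 genes tested. *Gpnmb* (−0.88), *Fabp4* (−1.20), *Fabp5* (−0.66), *Acp5* (−0.66) and *Cd63* were lower under αMARCO and *Spp1* (0.52, adjusted *P* = 0.0467, edgeR) was higher. In the model of 7 libraries *Gpnmb*, *Fabp5*, *Acp5* and *Cd63* were called, against 2.12% of all genes. Without replicate 1, 5 were called, against 34.1% of all 16110 genes tested, *Gpnmb* (−1.03) and *Fabp5* (−0.58) lower and *Spp1* (0.66), *Cd9* (0.94) and *Trem2* (0.85) higher. *Gpnmb*, *Fabp5* and *Spp1* were thus called with the same sign whichever of the 2 libraries was left out, with a lone library assumed to vary like the other groups.

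**Figure D4:**
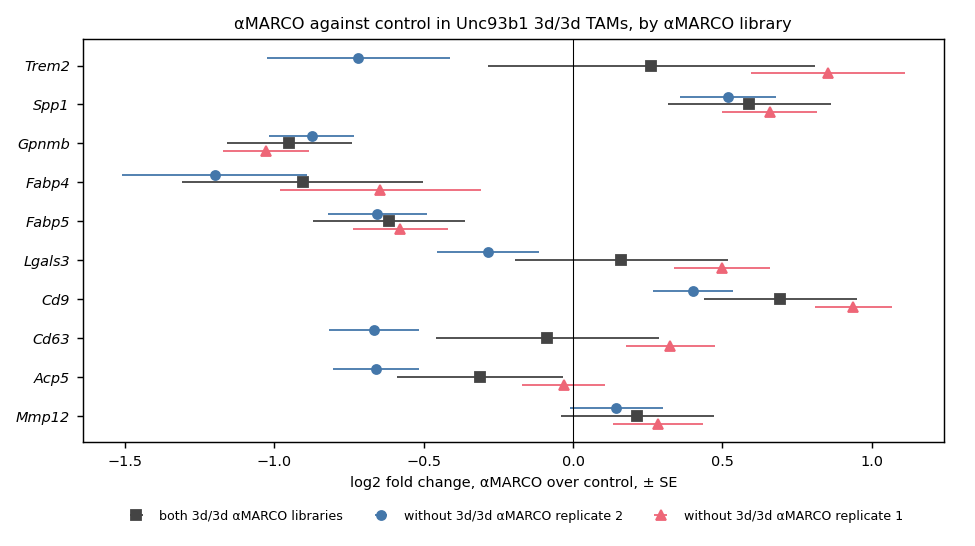
Log2 fold changes (αMARCO over control) in *Unc93b1* 3d/3d TAMs with standard errors, with both αMARCO libraries (squares), without replicate 2 (circles) and without replicate 1 (triangles). *Gpnmb*, *Fabp5* and *Spp1* kept their side of 0 at similar values, while *Trem2*, *Lgals3* and *Cd63* lay on opposite sides of 0 depending on the library left out.

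The difference between the αMARCO effects in WT and *Unc93b1* 3d/3d TAMs was tested over all 8 libraries as an interaction. None of the 10 genes was called, against 0% of 16620 genes tested by edgeR, of which 2549 had an unadjusted *P* under 0.05, and DESeq2 called 211 genes and none of the 10. *Cd9*, which had a log2 fold change of −0.48 in WT and 0.69 in *Unc93b1* 3d/3d TAMs, had the smallest *P* among the 10 (difference −1.17, standard error 0.30, unadjusted *P* = 0.00413, adjusted *P* = 0.318, edgeR). *Spp1* followed the same pattern with a difference of −0.93 (standard error 0.31, adjusted *P* = 0.318). *Gpnmb* (0.71, standard error 0.20) and *Fabp5* (0.66, standard error 0.24) differed the other way, with adjusted *P* values of 0.318 in edgeR. Without *Unc93b1* 3d/3d αMARCO replicate 2, the differences of *Cd9* (−0.90, adjusted *P* = 0.0253), *Gpnmb* (0.62, adjusted *P* = 0.0391) and *Fabp5* (0.68, adjusted *P* = 0.0477, all edgeR) were called, against 3.45% of all genes. Without replicate 1, 6 were called, these 3 and *Acp5*, *Cd63* and *Spp1*, against 36.4% of all genes. For *Acp5* the difference was −0.41 (standard error 0.31) over all libraries and −0.088 without replicate 2.

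To place *Trem2* and *Spp1* among all genes, each gene with a mean of at least 10 CPM was centred on its own mean log2 CPM, and the root-mean-square difference from the 2 genes over the 8 libraries was taken. Among 9054 genes, *Apoe* was most like *Trem2* (0.27 on the log2 scale), followed by *Pf4*, a platelet chemokine gene also expressed by resident macrophages (0.33), and *Syngr1*, a vesicle protein gene (0.34). *Apoe* had 2475 and 2509.9 CPM in WT control, 5608 and 6792 CPM in *Unc93b1* 3d/3d control, 2186 and 2625 CPM in WT αMARCO, and 3747 and 8417 CPM in *Unc93b1* 3d/3d αMARCO TAMs. It shared with *Trem2* the low WT libraries and the wide gap between the 2 *Unc93b1* 3d/3d αMARCO libraries. For *Spp1*, the most similar genes were the growth factor *Pgf* (0.28), the fractalkine receptor *Cx3cr1* (0.296) and the serotonin receptor *Htr7* (0.297). *Pgf* had 27.1 to 46.0 CPM in WT control, 56.8 and 60.2 CPM in *Unc93b1* 3d/3d control, 24.9 and 28.6 CPM in WT αMARCO, and 57.2 and 72.9 CPM in *Unc93b1* 3d/3d αMARCO TAMs. This likeness is a description over 8 libraries that differ in depth and in markers of other cells, and no test was made.

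Some counts could not be assigned to a gene with certainty. *Spp1* overlaps the annotated gene *Gm42793* on the same strand, which had 2871 counts over the 8 libraries against 107075 for *Spp1*. *Cd9* overlaps 2 antisense genes with 323 counts in all, and *Acp5* and *Mmp12* each overlap a gene with 36 counts. Pseudogenes of *Cd63*, *Cd9* and *Fabp5* are annotated, and whether the counting used strand is not given in the sources used here.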

How the data were processed

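Poly-A mRNA of sorted TAMs was sequenced on a NovaSeq instrument. Per the submitters' processing notes, reads were handled with fastp, HISAT2 2.0.5 and featureCounts 1.5.0 on GRCm38, and DESeq2 1.40.2 was used by the authors for their own comparisons. The authors deposited raw counts per gene in 3 tables, which carry no normalization, and these were joined here by gene identifier into 26939 genes. The 95230 counts present in more than 1 table were identical. Deposited gene lengths set the levels per kilobase. The authors' normalized values, FPKM, fold changes and p-values were not used.

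Pairs of groups were compared in R 4.3.3 with edgeR 4.0.16 (TMM, filterByExpr, robust quasi-likelihood test, Benjamini-Hochberg adjustment over all tested genes) on their 4 libraries, and the interaction on all 8. Calls required an adjusted *P* not above 0.05 and a log2 fold change of 0.5 or more in size. Data were also simulated with the same spread for all genes and libraries, so without a library that stands apart. In these, 197 to 200 of 200 genes given a log2 fold change of 2 were recovered, and 10 to 11 unchanged genes were called. The spread was a set value, not estimated from these data, and the changed genes were drawn only from those with higher counts. This does not give the power of the real comparisons, including those that hold *Unc93b1* 3d/3d αMARCO replicate 2. Alternatives were DESeq2 1.42.0, its size factors, other filters on low counts, a replicate block, models of all 8 libraries, no fold change threshold and each library left out in turn. The model that omits *Unc93b1* 3d/3d αMARCO replicate 2 was added after the data were seen. For likeness, log2 CPM values carried a prior count of 2. Beyond the 10 genes and fixed checks, the naming rule took up to 3 called genes of lowest adjusted *P* from each list and comparison. Not all of these were named. Other named genes were chosen after their values were seen. The 10 genes and all lists were chosen with earlier results of these data known.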

Additional observations from a re-analysis of the deposited data

How the results depend on the processing

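Over 570 refits of single genes, 471 kept direction and side of the threshold, 58 passed it anew, 10 no longer passed it and 31 changed sign. In control TAMs, the 8-library model called 2 of the 10 genes and 364 genes in all. Between genotypes under αMARCO, 3 of the 10 were called by DESeq2 (214 genes in all), with no filter (107), with the replicate block (97) and in the 8-library model (108), and 4 in the 7-library model (687). For αMARCO in WT, the 8-library model called 0 of the 10 and 164 genes, and 5487 genes were called with no fold change threshold. For αMARCO in *Unc93b1* 3d/3d, the 7-library model called 4 of the 10 and 376 genes. There, DESeq2 called 60 genes, no filter 174, the replicate block 5 and the 8-library model 1. For the interaction, no filter called 1 of the 10 and 152 genes, and DESeq2 called 211 genes. The larger spread between the *Unc93b1* 3d/3d αMARCO libraries enters every fit that holds both. The cause of these changes was not tested.

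With 1 library omitted at a time, the fits called 5 to 6 of the 10 genes and 1493 to 2232 genes in all in control TAMs. Under αMARCO they called 0 to 7 of the 10 and 17 to 6366 genes between genotypes. For αMARCO in WT they called 3 to 5 of the 10 and 1940 (without WT αMARCO replicate 1) to 3951 genes, and in *Unc93b1* 3d/3d 0 to 6 of the 10 and 1 to 5500 genes. For the interaction they called 0 to 6 of the 10 and 0 to 6440 genes.

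Signs changed for small or unstable differences. Between genotypes under αMARCO, *Lgals3* turned to 0.23 in the 7-library model and ranged from −0.54 to 0.23 with libraries left out. For αMARCO in WT, *Lgals3* turned to 0.013 with DESeq2 or its size factors and to 0.016 with at least 10 counts in every library. With libraries left out, *Lgals3* ranged from −0.12 to 0.12, *Trem2* from −0.099 to 0.51, *Fabp5* from −0.10 to 0.18 and *Mmp12* from −0.034 to 0.31. For αMARCO in *Unc93b1* 3d/3d, the 7-library model gave −0.73 for *Trem2* and −0.29 for *Lgals3*, and with libraries left out *Trem2* ranged from −0.72 to 0.85, *Cd63* from −0.67 to 0.33 and *Lgals3* from −0.28 to 0.50. For the interaction, *Trem2* turned to 0.0043 with DESeq2, 0.0093 with its size factors, 0.067 with at least 10 counts and 0.051 with the replicate block, and *Mmp12* to 0.00031 with at least 10 counts. With libraries left out, *Trem2* ranged from −0.61 to 0.94, *Mmp12* from −0.25 to 0.059, *Lgals3* from −0.49 to 0.26 and *Fabp4* from −0.74 to 0.093.

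Same-numbered libraries of different groups had correlations of −0.077 to 0.135 between their deviations from the group means. With 2 libraries a group, these values cannot settle whether the numbers pair the libraries. Apart from the counts given above, the block by these numbers moved no number of calls by over 1.5 times. It called 2395 genes and 7 of the 10 in control TAMs, and 97 genes and 3 of the 10 between genotypes under αMARCO. A replicate block with the numbers crossed, run after the data were seen, called 1260 genes and 5 of the 10 in control TAMs, 70 genes and 1 of the 10 between genotypes under αMARCO, and 5 genes for αMARCO in *Unc93b1* 3d/3d TAMs. With 2 libraries a group, a fit that leaves 1 out assumes that the remaining library varies like the other groups.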
